A study of Ovis aries with 32 samples.

Results

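Elastic fibres let vessels, fasciae and the stroma between fat cells recoil after stretch, and 10 genes of these fibres are described here: ELN, FBN1, MFAP2, MFAP4, MFAP5, FBLN1, FBLN5, EFEMP2, LOX and LOXL1. They were chosen by symbol from a count table of 28524 genes of sheep (Ovis aries) fat, and all 10 were found. Fibroblasts and vascular smooth muscle cells secrete tropoelastin, the soluble product of ELN, onto a scaffold of fibrillin microfibrils. Fibulins bring tropoelastin to that scaffold and lysyl oxidases crosslink it into an insoluble fibre that is replaced very slowly in adult tissue. In fat, elastic fibres lie mainly in vessel walls and in the septa around lobules.

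RNA was measured by 3′ end sequencing in 4 fat depots of 8 ewes, with 1 library per depot and ewe. The dams of the 4 testosterone ewes (48, 185, 233 and 255 in the labels) received 100 mg of testosterone propionate (1.2 mg per kg) in corn oil by intramuscular injection, 2 injections per week from day 30 to day 90 of pregnancy, and 4 further ewes (98, 131, 132 and 201) are labelled control, with no vehicle injection stated for their dams. All 8 offspring were housed together on a maintenance diet, had their ovaries removed after the second breeding season, and then received a 1 cm estradiol implant, 14 days of progesterone, and 4 estradiol implants of 30 mm for the last 18 hours. The depots were visceral fat of the mesentery, subcutaneous fat over the sternum, perirenal fat around the kidney and epicardial fat on the heart, and each of the 8 groups (depot by treatment) has 4 libraries, 1 per ewe. Whole tissue was the sample, and control and testosterone ewes received the same hormone implants.

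Levels are given as CPM, a gene's count relative to its library's total, on totals scaled by edgeR's TMM factors, as mean ± SD with n = 4. Each 3′ library counts transcript ends, and levels are compared between samples of 1 gene and not between genes. Totals ran from 784135 to 8267824 counts per library, and the 10 genes together took 0.04 to 0.168% of them. The lowest count of any of them was 4, of EFEMP2 in the shallowest library, subcutaneous testosterone 48, so the scarce genes MFAP2, EFEMP2 and LOXL1 carry the largest counting error. Adipocyte markers (6 of 6 in the table) summed to 7020 to 52400 CPM over the libraries, with the lowest sum in epicardial control 98. Libraries that stood apart were subcutaneous testosterone 48 and visceral testosterone 255, with ARGLU1, an intron-retaining nuclear transcript, at 26360 and 19700 CPM. Epicardial testosterone 48 and 233 came next, at 4996 and 3963 CPM on totals of 1753228 and 2077594 counts. Epicardial controls held 640 to 1440 CPM of ARGLU1. Heart muscle markers (6 of 8 in the table) summed to between 1.88 and 10200 CPM in epicardial libraries and to at most 1.33 CPM elsewhere. Epicardial testosterone 255 held HOXC6, a trunk position gene, at 94.6 CPM against at most 2.21 CPM in the other 7 epicardial libraries.

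The elastic fibre genes were proposed for description with results of these data known, and which contrast led to the choice is not recorded. Adjusted p-values below are the output of fits over all genes and are given as a description of these libraries. None of them is independent support for the choice. Log2 fold changes, standard errors (SE) and p-values are from edgeR's quasi-likelihood test, with Benjamini-Hochberg adjustment over all genes tested and a threshold of 0.05.

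ELN, which encodes tropoelastin, had its widest difference between treatments in subcutaneous fat. Control ewes 98, 131, 132 and 201 held 125, 92.9, 99.2 and 67.5 CPM there, and testosterone ewes 48, 185, 233 and 255 held 17.5, 28.3, 15.7 and 12.7 CPM. All 4 testosterone libraries lay below all 4 controls, with a gap between 28.3 CPM (testosterone 185) and 67.5 CPM (control 201). The means were 96.2 ± 23.7 and 18.6 ± 6.80 CPM, a log2 fold change of -2.36 (SE 0.293), or 5.15-fold lower. Its unadjusted p was 4.62e-06 and its adjusted p 0.0562, so ELN missed the threshold over all 12166 genes tested. Genes whose testosterone libraries all lay below the controls made up 1.79% of those tested in subcutaneous fat, and 0% passed the threshold in either direction.

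**Figure D1:**
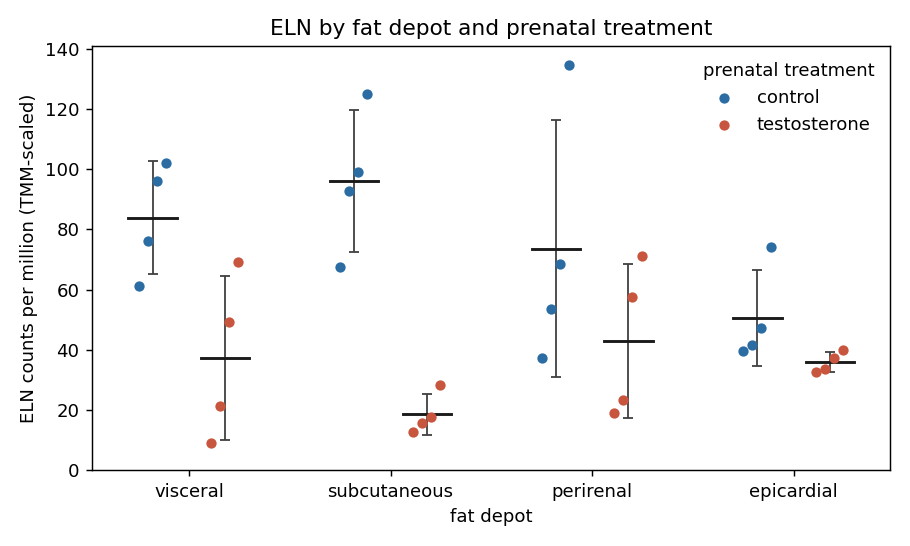
ELN in CPM (y axis) in each of the 32 libraries (points) by fat depot (x axis), with control in blue and testosterone in red; horizontal lines are group means and bars are SD, n = 4. Subcutaneous testosterone libraries lie between 12.7 and 28.3 CPM and subcutaneous controls between 67.5 and 125 CPM, while the groups overlap in the other 3 depots.

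Other settings put the adjusted p on the other side of the threshold. With library totals left unscaled it was 0.0304, where ELN was the single gene called (0.00822% of those tested), and with no filter on low counts it was 0.000763, again as the single gene called (0.00504%). DESeq2 gave a log2 fold change of -2.36 and an adjusted p of 1.38e-09. Leaving out 1 ewe at a time gave log2 fold changes from -2.68 to -2.19 and adjusted p-values from 0.0239 (without 185) to 0.391. Without subcutaneous testosterone 48, the shallow library high in ARGLU1, the log2 fold change was -2.35 and the adjusted p 0.119, so the difference was as large without that library.

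In visceral fat the ELN values of control ewes 98, 131, 132 and 201 were 96.1, 102, 61.3 and 76 CPM, and those of testosterone ewes 48, 185, 233 and 255 were 21.4, 69.2, 49.3 and 9.13 CPM. Testosterone ewe 185 lay above the lowest control, and the other 3 lay below every control. The log2 fold change was -1.17 (SE 0.477, unadjusted p 0.0327, adjusted p 0.521), from 83.9 ± 18.8 to 37.3 ± 27.1 CPM. The lowest visceral value was that of library 255, the other one high in ARGLU1, which also had the lowest adipocyte marker sum of visceral fat, 8690 CPM; without it the log2 fold change was -0.87.

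In perirenal fat controls held 135, 68.4, 37.4 and 53.6 CPM and testosterone ewes 19.1, 71.2, 23.5 and 57.7 CPM in the same ewe order. The groups overlapped widely, and the highest value was control 98. The log2 fold change was -0.77 (SE 0.496, adjusted p 0.983), and it was -0.32 without ewe 98. Smooth muscle markers (8 genes) summed to 252 to 998 CPM in perirenal controls and 88.4 to 255 CPM in testosterone ewes, and their part in the ELN values was not tested.

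In epicardial fat controls held 47.1, 39.8, 41.7 and 74.1 CPM and testosterone ewes 33.6, 39.8, 32.8 and 37.2 CPM. These groups touched at 39.8 CPM, with a log2 fold change of -0.49 (SE 0.215, unadjusted p 0.0449, adjusted p 0.863). Fibroblast markers (5 genes, all 5 below 0 at log2 fold changes of -0.76 to -0.26, adjusted p 0.729 or more) summed to 3300 to 4790 CPM in epicardial controls and 2170 to 2990 CPM in testosterone ewes, with no overlap, and adventitial progenitor markers (6 genes, 5 below 0) to 160 to 222 and 121 to 155 CPM. Their part in the epicardial values of ELN, MFAP5 and FBLN1 was not tested. ARGLU1 had an epicardial log2 fold change of 1.56 (SE 0.477, unadjusted p 0.0101, adjusted p 0.76). It was 4996 and 3963 CPM in testosterone ewes 48 and 233, which held 33.6 and 32.8 CPM of ELN. The part of ARGLU1-rich RNA in the epicardial values was not tested either.

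The mean of ELN was thus below control in 4 of 4 depots. Summed over the depots of each ewe, ELN was 106, 75.9, 56.4 and 67.9 CPM in controls 98, 131, 132 and 201 and 21.9, 56.5, 29.7 and 34.5 CPM in testosterone ewes 48, 185, 233 and 255. Testosterone ewe 185 lay level with the lowest control, and the other 3 lay below. The summed log2 fold change was -1.10 (SE 0.295, unadjusted p 0.00467, adjusted p 0.632), and DESeq2 gave an adjusted p of 0.0412. Whether the effect differed between depots was tested on all 32 libraries with the ewe as a block. The subcutaneous effect minus the mean of the other 3 was -1.65 (SE 0.464, unadjusted p 0.0017, adjusted p 1), so a depot difference in the ELN response did not pass over all genes.

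Within a library, ELN can be set against FBN1, which needs no library scaling. ELN counts per 100 FBN1 counts in subcutaneous fat were 51.1, 50.9, 35.9 and 26.6 in controls 98, 131, 132 and 201 and 5.88, 12.3, 5.39 and 4.23 in testosterone ewes 48, 185, 233 and 255. In visceral fat they were 28.9, 29.3, 17.6 and 16.4 in controls and 6.37, 15, 8.18 and 4.18 in testosterone ewes. Groups did not overlap in these 2 depots. The same held, in the lower direction, for 4.91% of genes set against FBN1 in subcutaneous and 3.32% in visceral fat. In perirenal fat the ranges were 9.76 to 45.9 and 3.98 to 9.83, which overlapped between the lowest control and the highest testosterone ewe. In epicardial fat they were 9.54 to 25.6 and 8.05 to 18.7.

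**Figure D2:**
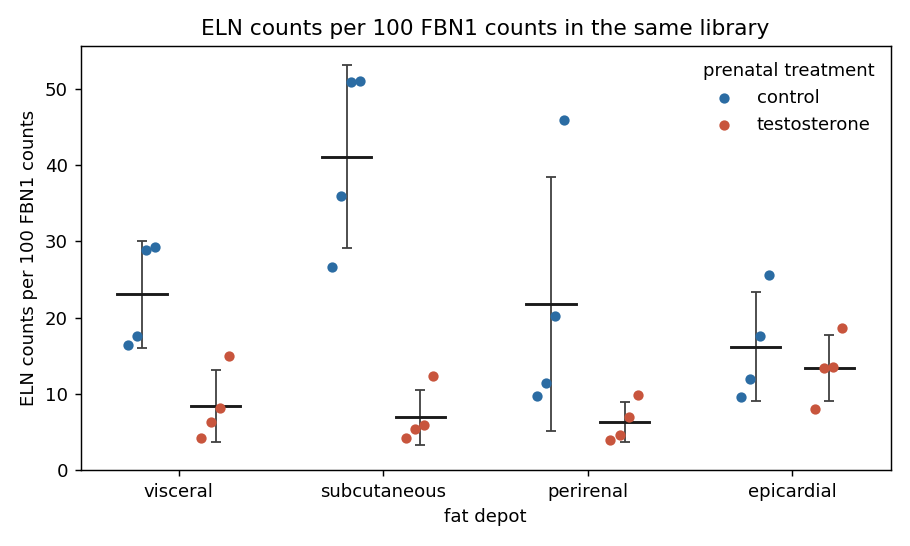
ELN counts per 100 FBN1 counts of the same library (y axis) for each of the 32 libraries (points) by fat depot (x axis), with control in blue and testosterone in red; lines are means and bars SD, n = 4. Subcutaneous means are 41.1 in controls and 6.95 in testosterone ewes, and the epicardial groups, with means of 16.2 and 13.4, overlap.

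Cell type marker sums in subcutaneous fat overlapped between treatments for the types given here. The smooth muscle markers summed to 102 to 263 CPM in subcutaneous controls and 58.2 to 605 CPM in testosterone ewes, so the range in testosterone ewes enclosed that of controls. Fibroblast markers summed to 1740 to 2290 CPM in controls and 1120 to 2630 CPM in testosterone ewes, and endothelial markers (5 genes) to 784 to 850 and 724 to 837 CPM. Adventitial progenitor markers (6 genes) summed to 139 to 187 and 114 to 217 CPM. Of these, SEMA3C had a log2 fold change of -1.53 (SE 0.662, unadjusted p 0.0444, adjusted p 0.927) and PI16 of -0.07. DPP4, CD55, ANXA3 and CD248 were at 0.31, 0.01, 0.59 and 0.43. In bulk tissue, fewer cells of a type and less RNA per cell cannot be told apart. The part of these cells in the ELN difference was not tested beyond these sums.

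FBN1 encodes fibrillin-1, the main protein of the microfibril, and its group means did not follow those of ELN. In subcutaneous fat FBN1 was 239 ± 40.1 CPM in controls and 280 ± 33.4 CPM in testosterone ewes (log2 fold change 0.24, SE 0.194, adjusted p 0.938). In perirenal fat controls 98, 131, 132 and 201 held 293, 339, 329 and 549 CPM and testosterone ewes 48, 185, 233 and 255 held 408, 724, 590 and 833 CPM. Of the testosterone ewes, 48 lay below the highest control and the other 3 lay above it. The perirenal log2 fold change was 0.76 (SE 0.253, unadjusted p 0.0124, adjusted p 0.914). Summed per ewe it was 0.37 (SE 0.144, unadjusted p 0.0277, adjusted p 0.71).

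MFAP4, a microfibril-associated protein that binds tropoelastin and fibrillin, had lower means in testosterone ewes in visceral, subcutaneous and perirenal fat and level means in epicardial fat. In visceral fat controls 98, 131, 132 and 201 held 49.3, 40.5, 30.4 and 26.2 CPM and testosterone ewes 48, 185, 233 and 255 held 19.8, 27.7, 18.5 and 7.39 CPM. Ewe 185 alone overlapped the control range. The log2 fold changes were -0.99 in visceral (SE 0.347, unadjusted p 0.0162, adjusted p 0.521), -0.84 (SE 0.397, adjusted p 0.927) in subcutaneous fat and -0.65 (SE 0.369, adjusted p 0.971) in perirenal fat. The epicardial means were 27.7 ± 9.85 and 27.5 ± 2.02 CPM. Summed per ewe the log2 fold change was -0.65 (SE 0.185, unadjusted p 0.00548, adjusted p 0.632), from 28.9 to 18.4 CPM. MFAP4 and ELN thus had the pair of lowest unadjusted p-values among the 10 genes in the summed fit.

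MFAP5 encodes a small microfibril glycoprotein, and its differences ran in opposite directions in perirenal and visceral fat. In perirenal fat controls 98, 131, 132 and 201 held 60.4, 152, 144 and 164 CPM and testosterone ewes 48, 185, 233 and 255 held 71.1, 434, 333 and 233 CPM. Testosterone ewes 185, 233 and 255 lay above every control and ewe 48 lay among them. In visceral fat controls held 190, 220, 204 and 169 CPM and testosterone ewes 35.1, 79.8, 214 and 43.9 CPM, where ewe 233 lay inside the control range and the other 3 lay below it.

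The MFAP5 log2 fold changes were 1.05 in perirenal (SE 0.505, unadjusted p 0.0674, adjusted p 0.951), -1.08 in visceral (SE 0.486, unadjusted p 0.0494, adjusted p 0.521), -0.79 in epicardial (SE 0.342, unadjusted p 0.0434, adjusted p 0.863) and -0.44 in subcutaneous fat (SE 0.359, adjusted p 0.939). Leaving out 1 ewe at a time gave visceral log2 fold changes from -1.90 (without 233) to -0.81 (without 48), with adjusted p-values from 0.0822 to 0.813. Epicardial log2 fold changes then ran from -1.07 to -0.58. The lowest epicardial level, 97.4 CPM, was that of testosterone 255, the library with HOXC6 at 94.6 CPM. The perirenal effect minus the mean of the other 3 depots was 1.86 (SE 0.416, unadjusted p 0.000167, adjusted p 0.775), and the joint test over depots gave an unadjusted p of 0.00113 and an adjusted p of 0.932. The difference between depots therefore did not pass over all 14225 genes tested, of which 0.00703% passed in each of these 2 tests.

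Among markers of adventitial progenitor cells (6 genes), PI16 lay in a similar order to MFAP5 in perirenal fat. PI16 was 25, 38.7, 28.5 and 65.4 CPM in perirenal controls 98, 131, 132 and 201 and 28.1, 408, 120 and 162 CPM in testosterone ewes 48, 185, 233 and 255, with ewes 185, 233 and 255 above every control (log2 fold change 2.20, SE 0.706, adjusted p 0.914). The sum of the 6 genes, 152 to 203 CPM in controls and 147 to 590 CPM in testosterone ewes, followed PI16. CD55 and CD248 were higher as well, at log2 fold changes of 0.85 and 0.90, while DPP4, SEMA3C and ANXA3 were at 0.01, 0.03 and 0.11. Adjusted p-values of the 6 were 0.879 or more.

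In visceral fat PI16 was 38.1, 30.5, 31.6 and 32.5 CPM in controls and 5.61, 18.3, 35.1 and 7.83 CPM in testosterone ewes, where ewe 233 alone lay inside the control range, as for MFAP5. The 6 progenitor markers summed to 196 to 268 CPM in visceral controls and 121 to 280 CPM in testosterone ewes, with 4 of 6 below 0 in log2 fold change and SEMA3C lowest at -1.29. Adipocyte markers summed to 31600 to 52400 and 8690 to 30200 CPM, with no overlap, and most of the sum was FABP4 (log2 fold change -1.05, adjusted p 0.521) and ADIPOQ (-0.67). PLIN1 was at -0.65, LIPE at -0.24 and CIDEC at -0.05, while LEP went the other way at 0.59. The fibroblast marker DPT was at -0.97 (adjusted p 0.521) while COL1A1, COL3A1 and LUM were above 0. Fibroblast markers summed to 1500 to 2700 CPM in visceral controls and to 1267, 2107, 6091 and 1200 CPM in testosterone ewes 48, 185, 233 and 255. The highest sum was thus that of ewe 233, the ewe inside the control range of MFAP5 and PI16. Endothelial markers did not share a direction: PECAM1 was at 0.63 (adjusted p 0.521), CDH5 and VWF at 0.24 and 0.44, and CLDN5 and TEK at -0.35 and -0.08. The part of these markers in the MFAP5, MFAP4 and ELN values was not tested.

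**Figure D3:**
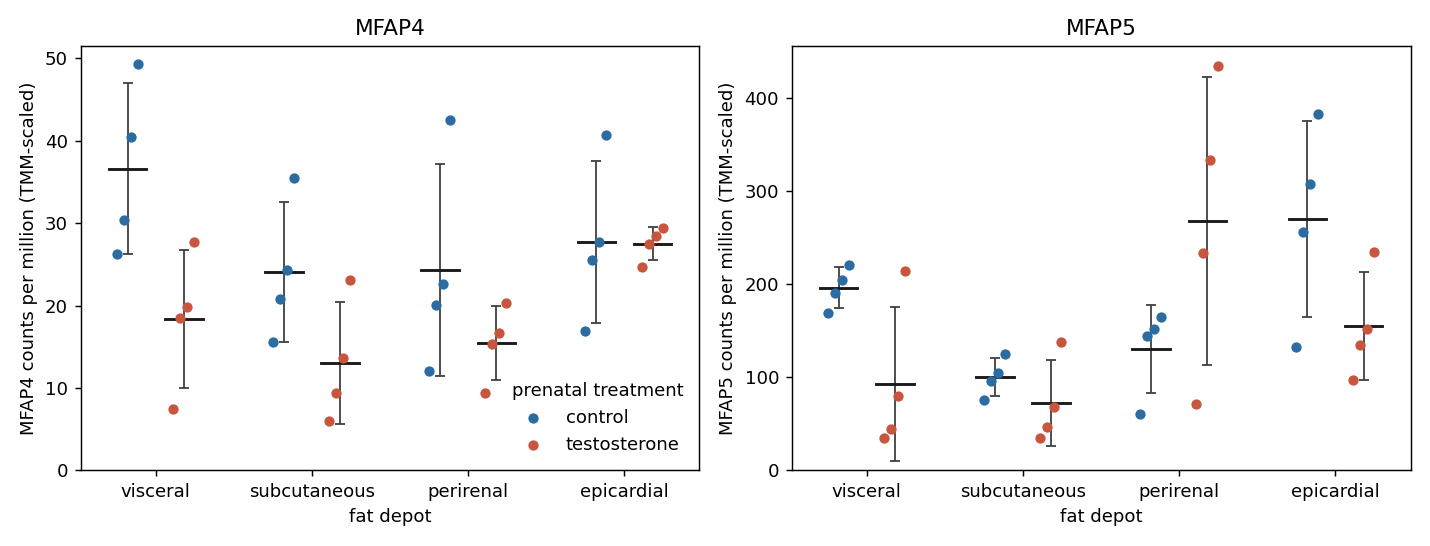
MFAP4 (left) and MFAP5 (right) in CPM (y axes) in each of the 32 libraries (points) by fat depot (x axes), with control in blue and testosterone in red; lines are means and bars SD, n = 4. MFAP4 means are 36.6 and 18.4 CPM in visceral fat and nearly level in epicardial fat, and MFAP5 means are 130 and 268 CPM in perirenal fat but 196 and 93.1 CPM in visceral fat.

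MFAP2, the other small microfibril glycoprotein, was scarce, at 3.91 to 12.2 CPM over all libraries. Its log2 fold changes with testosterone lay between -0.28 and 0.54, with unadjusted p-values of 0.147 to 0.903.

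FBLN5, which tethers tropoelastin to microfibrils and cells, had a higher mean after testosterone in 4 of 4 depots, with log2 fold changes of 0.22 (visceral), 0.66 (subcutaneous), 0.31 (perirenal) and 0.80 (epicardial). In epicardial fat controls 98, 131, 132 and 201 held 13.7, 32.4, 17.6 and 39.2 CPM and testosterone ewes 48, 185, 233 and 255 held 43.3, 28.5, 48.7 and 58.5 CPM. Ewe 185 alone lay inside the control range (SE 0.341, unadjusted p 0.041, adjusted p 0.863). The highest value, 58.5 CPM, was that of epicardial testosterone 255, the library with HOXC6 at 94.6 CPM. With each ewe left out in turn the epicardial log2 fold change ranged from 0.60 to 1.07. ELN and FBLN5 means therefore lay on opposite sides of control in all 4 depots, and neither passed in edgeR's reported fit; ELN in subcutaneous fat did by DESeq2.

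FBLN1, a fibulin found within elastic fibres, held 118, 82.8, 42.2 and 52.2 CPM in epicardial controls and 31.2, 55.1, 40.5 and 48.1 CPM in testosterone ewes. The groups overlapped, and the highest value was control 98, the epicardial control with the most heart muscle RNA. The log2 fold change was -0.74 (SE 0.316, unadjusted p 0.0411, adjusted p 0.863), and it was -0.28 without epicardial control 98 and testosterone 48, which held the most heart muscle transcripts. FBLN1 was level in the other depots, with log2 fold changes of 0.04, 0.01 and 0.11. EFEMP2, which encodes fibulin-4 and brings lysyl oxidase to tropoelastin, had log2 fold changes of 0.62 in visceral fat (SE 0.306, unadjusted p 0.0686, adjusted p 0.524) and of -0.09 to 0.09 elsewhere.

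LOX, the main lysyl oxidase of elastin and collagen, was 185 ± 61.5 and 123 ± 90.9 CPM in subcutaneous control and testosterone fat. Its testosterone values there were 55.3, 238, 153 and 44.7 CPM in ewes 48, 185, 233 and 255, of which 185 and 233 lay inside the control range of 119 to 260 CPM. LOX log2 fold changes were -0.46, -0.56, 0.17 and -0.33 in visceral, subcutaneous, perirenal and epicardial fat, with unadjusted p-values of 0.211 to 0.654. LOXL1, a lysyl oxidase tied to elastin renewal in mice, had log2 fold changes of -0.26, -0.12, 0.69 and -0.63 in the same order, with unadjusted p-values of 0.119 or more.

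Counted over the 10 genes, 0 passed edgeR's threshold in any depot or in the summed fit, where 0% of all genes passed in each of the 4 depots and 0.00654% in the summed fit. At an unadjusted p under 0.05 visceral fat had 3 of the 10 (9.42% of all genes), subcutaneous fat 1 (5.11%), perirenal fat 1 (5.37%), epicardial fat 4 (5.65%) and the summed fit 3 (6.80%). Lower in testosterone ewes were 3, 1, 0 and 3 of these in the order of the depots, where 4.19%, 2.12%, 2.80% and 1.93% of all genes were. All testosterone libraries lay below all controls in 1 of 40 cases, ELN in subcutaneous fat. Visceral fat had 2.79% of all genes in that state, subcutaneous fat 1.79%, perirenal fat 1.63% and epicardial fat 1.70%, so the count over the 10 genes was near the background.

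DESeq2 called ELN in subcutaneous fat and in the summed fit, where it called 0.0986% and 0.412% of all genes, and 0 of the 10 genes in visceral (0.163%), perirenal (0.0777%) and epicardial fat (0.188%). In the joint test of depot by treatment 0 of 10 passed by edgeR and 0 by DESeq2 (0.0703% of all genes), and 2 (ELN and MFAP5) had an unadjusted p under 0.05, as did 4.61% of all genes. The median log2 fold change of the 10 genes was -0.107 in visceral fat against 0.0212 over all genes. In subcutaneous fat it was -0.0554 against 0.0152, in perirenal fat 0.14 against 0.00473, and in epicardial fat -0.282 against 0.00309.

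**Figure D4:**
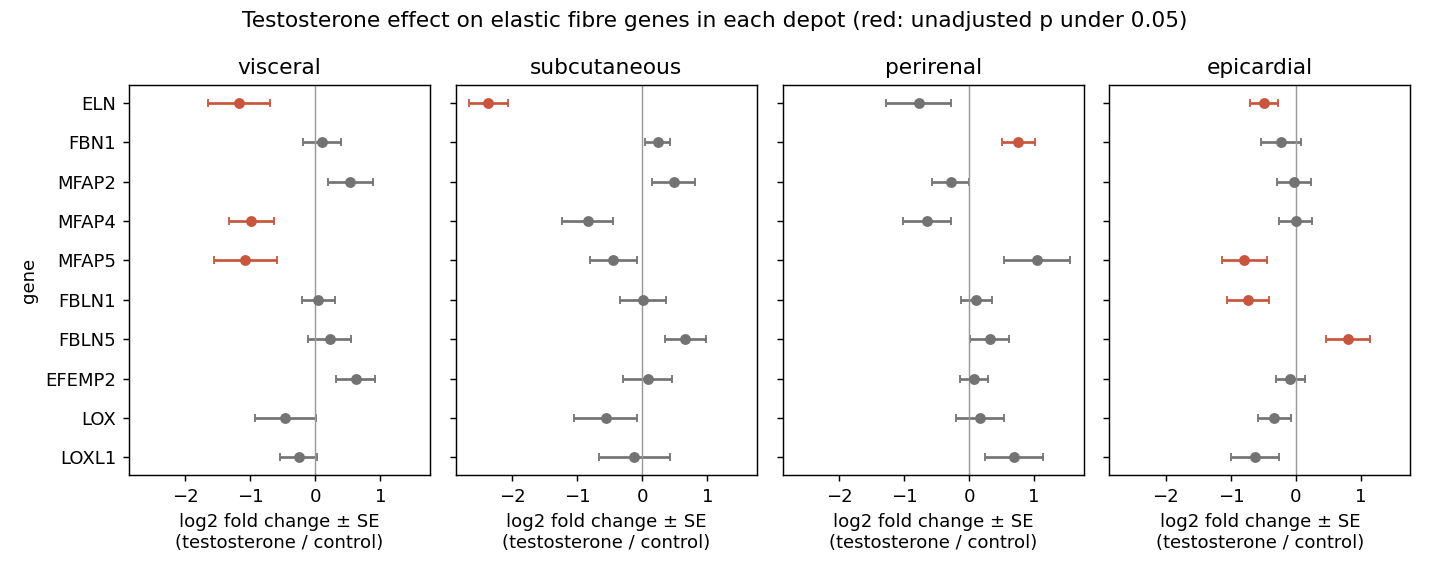
Log2 fold change of testosterone over control (x axes, points, bars are SE) for the 10 genes (y axis) in each depot (panels); red points have an unadjusted p under 0.05 and none passed edgeR's adjustment over all genes (DESeq2 called ELN in subcutaneous fat). ELN lies below 0 in all 4 panels, furthest at -2.36 in subcutaneous fat, and FBLN5 lies above 0 in all 4.

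Between depots more of the elastic fibre genes passed. In control ewes 23 of 60 differences (10 genes in 6 depot pairs, ewe as a block) passed, where 18.1% of the same tests over all genes did. Subcutaneous fat was the lower depot in 15 of the 23 and had the lowest control mean of all 4 depots for 8 of the 10 genes: FBN1, MFAP2, MFAP4, MFAP5, FBLN1, FBLN5, EFEMP2 and LOXL1. For MFAP4 this was a tie with perirenal fat (24.1 and 24.3 CPM), and without library scaling perirenal fat was the lower, at 23.3 against 24.9 CPM. ELN and LOX were the exceptions, with their highest control means in subcutaneous fat. Of the 23 differences, 7 passed in every alternative processing and with each ewe left out. They were FBLN5 in visceral and in perirenal fat, each against subcutaneous and epicardial fat, EFEMP2 and LOXL1 in subcutaneous against epicardial fat, and LOX in subcutaneous against perirenal fat. The number passing was 10 without ewe 131 and 11 without ewe 201. Calls over all genes fell as well, from 14495 as reported to between 8675 and 10392 with each ewe left out. With no block for the ewe 17 passed (13.1% of all tests), and by DESeq2 27 did (19.9%).

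FBLN5 set the depots furthest apart. In controls 98, 131, 132 and 201 it held 66.2, 69, 35.9 and 83 CPM in visceral, 36.2, 93.2, 38.6 and 71.1 in perirenal, 13.7, 32.4, 17.6 and 39.2 in epicardial and 12.5, 16.2, 10.6 and 22.6 CPM in subcutaneous fat. Every visceral and perirenal value lay above every subcutaneous value, while visceral and perirenal fat overlapped. Visceral minus subcutaneous fat was 2.06 on the log2 scale (SE 0.21, adjusted p 8.22e-06) and subcutaneous minus perirenal fat -1.92 (SE 0.21, adjusted p 2.02e-05). The difference between visceral and perirenal fat, with means of 63.5 and 59.7 CPM, did not pass (adjusted p 0.803). Both exceeded the epicardial mean of 25.7 CPM (adjusted p 0.000184 and 0.000474).

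EFEMP2 had a different order. Its epicardial values in controls were 18.3, 19.2, 31.2 and 25.3 CPM and its subcutaneous values 5.51, 7.15, 10.8 and 6.51 CPM, with perirenal and visceral means of 13.9 and 13 CPM between them. Epicardial fat was above subcutaneous fat in all 4 controls, and subcutaneous minus epicardial fat was -1.66 (SE 0.243, adjusted p 0.00013). Epicardial fat also exceeded visceral (adjusted p 0.0142) and perirenal fat (adjusted p 0.024). Each of these calls was lost in 3 of the 4 fits with 1 ewe left out (adjusted p up to 0.0982 and 0.137). Visceral and perirenal fat did not pass against each other (adjusted p 0.891).

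Other genes low in subcutaneous fat were LOXL1, MFAP5, FBLN1, FBN1 and MFAP2. LOXL1 was 7.17 ± 3.77 CPM there and 24.2 ± 9.19 CPM in epicardial fat (log2 difference -1.75, SE 0.345, adjusted p 0.00189). MFAP5 was 100 ± 20.4 and 270 ± 105 CPM in the same pair of depots (-1.34, SE 0.302, adjusted p 0.00643), and FBLN1 27.8 ± 15 and 73.9 ± 34.3 CPM (-1.37, SE 0.356, adjusted p 0.0145). FBN1 was lower in subcutaneous than in perirenal (-0.62, SE 0.188, adjusted p 0.0237) and visceral fat (adjusted p 0.0344). MFAP2 was lower than in perirenal (-0.95, SE 0.277, adjusted p 0.0201) and epicardial fat (adjusted p 0.033), at 4.71 ± 0.862 CPM. The calls of FBLN1, of FBN1 against visceral fat and of MFAP2 against epicardial fat were lost in 3 of the 4 fits with 1 ewe left out. Those of MFAP5, and of FBN1 and MFAP2 against perirenal fat, were lost in 2.

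LOX ran the other way. In controls 98, 131, 132 and 201 it held 260, 206, 154 and 119 CPM in subcutaneous and 97, 126, 89.2 and 44.8 CPM in perirenal fat, higher in subcutaneous fat in each of the 4 ewes although the groups overlapped. The log2 difference was 1.07 (SE 0.223, adjusted p 0.00344), and subcutaneous minus epicardial fat was 0.69 (SE 0.224, adjusted p 0.0364). The epicardial call of LOX was lost in 3 of the 4 fits with 1 ewe left out (adjusted p up to 0.206). ELN was 96.2, 83.9, 73.5 and 50.7 CPM in subcutaneous, visceral, perirenal and epicardial controls, and by edgeR its subcutaneous to epicardial difference alone passed among its 6 pairs (0.89, SE 0.287, adjusted p 0.0373). That call was lost in 3 of the 4 fits with 1 ewe left out (adjusted p up to 0.15). DESeq2 also called visceral against epicardial fat. Differences between neighbours in the ELN order did not pass (adjusted p 0.668, 0.719 and 0.314). MFAP4 passed in 0 of its 6 pairs by edgeR, in 0 at an unadjusted p under 0.05 and in 0 by DESeq2, with means from 24.1 CPM in subcutaneous to 36.6 CPM in visceral fat.

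By pair of control depots, 4 of 10 genes were higher in visceral than in subcutaneous fat and 0 lower, where 7.52% of all genes were higher and 14.0% passed in either direction. In subcutaneous against perirenal fat 5 were lower and LOX higher, with 12.2% and 11.4% of all genes (23.6% together). In subcutaneous against epicardial fat 6 were lower and 2 higher, with 12.5% and 10.6% (23.1% together). Visceral against epicardial fat gave 2 of 10 with 21.9% of all genes, a share near the background. Perirenal against epicardial fat gave 3 of 10 with 25.2%, and visceral against perirenal fat 0 by edgeR with 0.613%, 0 by DESeq2, and 3 at an unadjusted p under 0.05 with 12.7%.

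Cell type markers differed between depots as well. Mesothelial markers (6 genes), of the sheet of cells that covers the inner organs, summed to 1.45 to 4.05 CPM in subcutaneous controls and to at least 57.7 CPM in every control library of the other depots. These sums rest mostly on 1 gene, WT1, at means of 109, 77.7 and 62.5 CPM in visceral, perirenal and epicardial controls. KRT8 had means of 1.6, 3.25 and 13.5 CPM there. Fibroblast markers summed to at least 3300 CPM in epicardial controls and to 1500 to 2700 CPM in the other 3 depots. Their part in the depot differences was not tested. Without the epicardial libraries highest in heart muscle transcripts, 24 of 60 differences passed in controls. The share of all genes passing in that setting is not given, so this count was not set against a background.

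**Figure D5:**
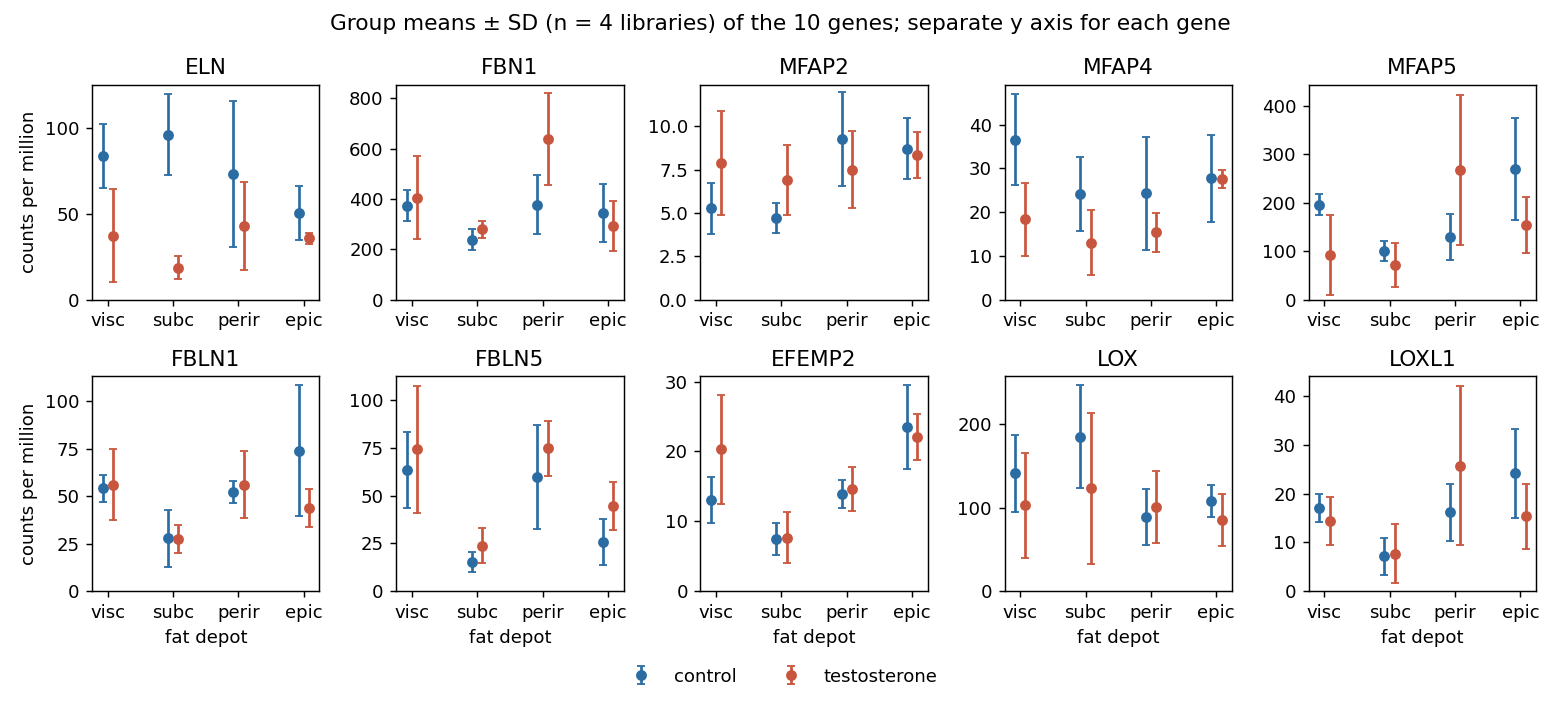
Group means in CPM (y axis, separate for each gene) with SD bars (n = 4) for the 10 genes in visceral, subcutaneous, perirenal and epicardial fat (x axis), with control in blue and testosterone in red. In controls subcutaneous fat is lowest for 8 genes, with MFAP4 tied with perirenal fat and lowest there without library scaling, and highest for ELN and LOX, and in testosterone ewes the lowest depot mean of ELN, 18.6 CPM, is that of subcutaneous fat.

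In testosterone ewes, which are different animals, 5 of 60 depot differences passed, where 1.83% of the same tests over all genes did. All 5 had subcutaneous fat as the lower depot, and 0 of the 5 passed with every ewe left out in turn. FBLN1 was lost with each of the 4 left-out ewes (adjusted p 0.0518 to 0.271). FBLN5 was lower in subcutaneous than in visceral (1.64 for visceral minus subcutaneous, SE 0.284, adjusted p 0.0153) and perirenal fat (-1.72, SE 0.285, adjusted p 0.00642). EFEMP2 was lower than in epicardial fat (-1.51, SE 0.342, adjusted p 0.021), and FBLN1 and MFAP5 were lower than in perirenal fat (-1.04, SE 0.235, adjusted p 0.0324, and -1.93, SE 0.39, adjusted p 0.019). By pair, 1 of 10 genes passed in visceral against subcutaneous fat with 0.664% of all genes, 3 in subcutaneous against perirenal fat with 2.23%, and 1 in subcutaneous against epicardial fat with 4.50%.

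Visceral against perirenal, visceral against epicardial and perirenal against epicardial fat gave 0 of 10 each by edgeR, with 0.0820%, 1.66% and 1.82% of all genes. In that order 1, 2 and 3 genes had an unadjusted p under 0.05 (12.1%, 14.9% and 22.2% of all genes), and DESeq2 called 1, 0 and 1. With subcutaneous 48 and visceral 255 left out, the libraries highest in ARGLU1, 13 of 60 passed where 5.26% of all tests did. DESeq2 on all libraries gave 15 where 5.55% did, and edgeR with no block for the ewe gave 3 where 1.24% did. By edgeR with the block, the number was 1 without ewe 185 and 2 without ewe 48 or 233. Over all genes, calls with 1 ewe left out ran from 197 to 3842, against 1469 as reported. The order of ELN means was perirenal, visceral, epicardial and subcutaneous (42.9, 37.3, 35.9 and 18.6 CPM), against subcutaneous first in controls. Of the 6 ELN pairs in testosterone ewes 0 passed by edgeR and 0 by DESeq2, and 3 had an unadjusted p under 0.05. LOX had its highest mean in subcutaneous fat there too, at 123 CPM.

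Further genes of the elastic fibre pathway were taken from 6 lists, and between testosterone and control ewes 0 of their 52 to 54 tested genes passed in any depot by edgeR or by DESeq2. At an unadjusted p under 0.05 visceral fat had 10 of them, subcutaneous fat 4, perirenal fat 8 and epicardial fat 7. Visceral, subcutaneous, perirenal and epicardial fat had 9.42%, 5.11%, 5.37% and 5.65% of all genes there. Between control depots 49.5% of all genes tested passed in at least 1 of the 6 pairs, and the counts of each list stand against that share. Of 16 tested microfibril genes, 12 passed in at least 1 pair. EMILIN1, a glycoprotein at the border of elastin and microfibril, was 26.5 CPM in epicardial, 9.57 in perirenal, 6.27 in visceral and 2.36 in subcutaneous fat (subcutaneous minus epicardial -3.45, SE 0.474, adjusted p 0.000144). EFEMP1, or fibulin-3, was 65 CPM in subcutaneous fat and 258 to 356 CPM elsewhere (subcutaneous minus perirenal -2.49, SE 0.24, adjusted p 1.25e-05). LTBP1, which anchors latent TGF-beta to microfibrils, was 25.4 CPM in subcutaneous and 135 CPM in epicardial fat (-2.41, SE 0.299, adjusted p 7.89e-05). FBLN7 went the other way, at 1.77 CPM in epicardial and 5.66 to 6.05 CPM in the other depots.

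Of 5 further crosslinking genes 3 passed in at least 1 pair, a share near the 49.5% of all genes. BMP1, the protease that activates lysyl oxidase, was 10.3 CPM in subcutaneous and 3.61 CPM in perirenal fat (1.55, SE 0.33, adjusted p 0.00327), and LOXL3 was 53.1 and 28.1 CPM in that pair (0.91, SE 0.255, adjusted p 0.0181). BMP1 was near its subcutaneous level in epicardial fat, at 9.82 CPM, and LOXL3 was highest there, at 73.1 CPM. TLL1, a protease of the BMP1 family, was 24.9 CPM in subcutaneous and 12.9 CPM in epicardial fat.

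All 5 tested genes of elastin degradation passed in at least 1 pair (49.5% of all genes), a list too short to set apart from that share. CTSS, an elastolytic cathepsin of macrophages, was 347 CPM in subcutaneous and 708 CPM in visceral fat (1.03 for visceral minus subcutaneous, SE 0.189, adjusted p 0.00203), beside sums of 4 macrophage markers of 61.2 to 121 and 109 to 291 CPM. MMP2 was 3.79 CPM in subcutaneous and 1.25 CPM in visceral fat, MMP14 6.96 CPM in perirenal and 2.06 CPM in epicardial fat, and CTSL 6.26 CPM in visceral and 2.61 CPM in epicardial fat. Of 5 tested inhibitors 2 passed in at least 1 pair, near the share of all genes: TIMP2 was 79.9 CPM in epicardial and 161 to 246 CPM elsewhere, and CST3, the cathepsin inhibitor cystatin C, was 350 CPM in epicardial and 433 to 663 CPM elsewhere.

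Of 9 tested receptors and binding partners 7 passed in at least 1 pair (49.5% of all genes). VCAN, the proteoglycan versican, was 163 CPM in epicardial and 51.6 to 65.6 CPM elsewhere (perirenal minus epicardial -1.58, SE 0.244, adjusted p 0.000397), while LGALS3 and ITGB5 were lowest in epicardial fat, at 169 and 58.6 CPM. TNXB, a matrix protein whose loss in humans makes skin lax, was 6.23 CPM in visceral and 3.29 CPM in subcutaneous fat. Of 14 tested regulators 11 passed in at least 1 pair (49.5% of all genes). GATA6, a transcription factor of heart and smooth muscle, was 77.5 CPM in epicardial and 4.81 to 10.3 CPM elsewhere (subcutaneous minus epicardial -3.94, SE 0.364, adjusted p 3.91e-06). IGF1, which raises elastin synthesis in cultured smooth muscle cells of rats, was 103 CPM in subcutaneous and 534 to 865 CPM elsewhere (subcutaneous minus epicardial -3.08, SE 0.227, adjusted p 9.18e-08). WWTR1, the co-activator TAZ, was 111 CPM in epicardial and 343 to 457 CPM elsewhere, and SMAD3, a transducer of TGF-beta, was highest in subcutaneous fat at 54 CPM.

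The genes whose log2 CPM was most like that of ELN over the 32 libraries were found among 14224 genes by Pearson's r, as a description of libraries that share ewes, depots and depth. They were MEDAG, a gene of adipogenesis (r = 0.798), PRSS42P (0.792), SLC7A6OS (0.738), LOC114117712 (0.732) and CGREF1 (0.72). With the mean of each group subtracted, they were COL8A1, a short-chain collagen (0.803), CPXM2 (0.767), C5AR1, the complement C5a receptor (0.766), SFRP5, a secreted Wnt antagonist (0.754), and NPTXR (0.736). Among the elastic fibre genes MFAP4 and LOX came closest to ELN, ranked 8 and 43 over all libraries (r = 0.7 and 0.631) and 42 and 17 within groups (0.649 and 0.698). FBN1 was at r = 0.107 over all libraries and 0.395 within groups, and FBLN5 at -0.0291 and 0.144.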

How the data were processed

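The deposited table holds raw counts per gene in 32 libraries; the submitters' processing notes name STAR and featureCounts 1.6.1, besides Trimmomatic 0.36 and tools for quality control. Per the labels' protocols, libraries were made with a QuantSeq 3′ kit from RNA of integrity number 7 or more. No build, annotation or strand setting is named, and reads of overlapping or antisense genes may be misassigned. Of the 10 symbols, 10 matched a RefSeq table of ARS-UI_Ramb_v3.0, used for names only.

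From the counts, edgeR 4.0.16 (R 4.3.3) fitted quasi-likelihood models (robust, TMM factors 0.882 to 1.11, filterByExpr with a minimum count of 10), with Benjamini-Hochberg adjustment over all genes. The SE was taken from the log2 fold change and its F statistic. Testosterone effects used the 8 libraries of a depot, or counts summed per ewe. Depot pairs and the interaction had the ewe as a block, since each ewe gave 4 depots. Deviations of the same ewe from the group means correlated at a mean of 0.230 (41 of 48 over 0.1). Those of different ewes were at -0.0762, a value pushed below 0 by subtracting the group means and so no independent comparison. Of 48 replicate pairs 0 were identical. DESeq2 1.42.0, other scalings, no filter and left-out libraries were alternatives. Scripts were tested on simulated data.

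Members, lists and left-out libraries were chosen with earlier results of these data known. All members are named; of the other lists up to 4 genes are, those with the largest change among those passing between control depots or with testosterone, and for ELN the 5 genes most like it.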

Additional observations from a re-analysis of the deposited data

Results flagged for a closer look

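In 4 of the 80 groups of 4 libraries (10 genes in 8 groups) 1 library lay far from the other 3 by Dixon's ratio of the gap to the range at its 95% critical value; chance flags about 5% of groups. FBN1 in visceral control 201 was 464 CPM against 333 to 348 CPM in the other 3 controls. FBN1 in subcutaneous testosterone 185 was 230 CPM against 292 to 300 CPM. FBLN5 in perirenal testosterone 255 was 96.5 CPM against 65.4 to 68.7 CPM. LOXL1 in subcutaneous control 132 was 12.8 CPM, from 57 counts, against 5.06 to 5.51 CPM.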

How the results depend on the processing

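Recounts of genes passing under alternative settings stayed within 1.5 times the reported count in 91 cases and did not in 13. The count in subcutaneous testosterone fat went from 0 to 1 (ELN) with unscaled totals, with no filter and by DESeq2, and ranged from 0 to 1 with each ewe left out; the summed fit gave 1 (ELN) by DESeq2. Depot differences in controls, 23 as reported, ranged from 10 to 19 with each ewe left out, and were 17 with no ewe block and 27 by DESeq2. In testosterone ewes, 5 as reported, they ranged from 1 to 4 with each ewe left out. They were 15 by DESeq2, 3 with no ewe block and 13 without the libraries highest in ARGLU1. The cause was not tested, though leaving out ewes also means fewer samples. The block changed no call of a testosterone effect, which has none, and 0 of 10 interaction calls. The epicardial MFAP4 effect, -0.00472 as reported, ranged from -0.19 to 0.25 with each ewe left out and reversed to 0.04, 0.25 and 0.00101 without ewes 185, 201 and 233. Of single differences and levels, 489 recomputed values kept their direction and side of the threshold, 79 were no longer past it, 5 were newly past it and 3 reversed. Over all genes, depot calls in testosterone ewes were 1469 as reported, 4469 by DESeq2 and 197 to 3842 with each ewe left out, and those in controls 14495, and 8675 to 10392. Groups of 4 and the 784135 counts of the shallowest library limit what the scarce genes can show.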

Other observations

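THSD4, a microfibril assembly gene of the further lists chosen here after its values were seen, was 725 CPM in subcutaneous testosterone 48 against 24.7 to 42.1 CPM in the other 3 subcutaneous testosterone libraries, and 135 CPM in visceral testosterone 255 against 18.2 to 49.9 CPM. These are the libraries with ARGLU1 at 26360 and 19700 CPM. In epicardial testosterone fat THSD4 was 187, 43.8, 94.9 and 33.5 CPM in ewes 48, 185, 233 and 255, against 26.9 to 39.6 CPM in controls. In perirenal fat it was 19.7 to 28.8 CPM in testosterone ewes and 27.9 to 57.5 CPM in controls. MEDAG, whose level was most like that of ELN, was 799 ± 123 CPM in subcutaneous controls and 299 ± 83 CPM in subcutaneous testosterone ewes (SD, n = 4), with ranges of 659 to 933 and 180 to 356 CPM.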
